A study of Mus musculus with 2 samples.

Results

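Mir126a, 1 of 1973 annotated miRNA genes in the deposited tables, was described in short RNA libraries of mouse embryonic liver, taken at 12.5 days. Its row was found by matching the gene identifier of the tables (ENSMUSG00000065540.1) to GENCODE, and that match used no measured value. The gene itself was chosen with earlier results of these data known. Both libraries belong to 1 group of embryos of strain B6NCrl, labelled healthy, with both sexes pooled. Replicate 1 was made from the livers of 120 embryos and replicate 2 from those of 88. The 2 pools carry 1 donor identifier in the labels and a tissue sample identifier each, so the SD over n = 2 may in part be technical. No genotype, treatment or second tissue was compared.

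MicroRNAs are short RNAs that are cut from a hairpin and guide the silencing machinery to messenger RNAs that pair with their seed, bases 2 to 8 of the mature strand. miR-126 is known as the miRNA of endothelial cells. It lies within Egfl7, a gene for a secreted protein made by endothelial cells, and in mice its loss leads to leaky vessels and haemorrhage in part of the embryos. Its known targets include Spred1 and Pik3r2, which dampen the signal of the vessel growth factor VEGF, and it is also known from haematopoietic stem cells. The embryonic liver holds sinusoidal endothelium beside hepatoblasts, stellate cells and the blood-forming cells that settle there.

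In mm10 coordinates of GENCODE M21, Mir126a spans chromosome 2, 26591357 to 26591429, on the plus strand. Of the 19 annotated Egfl7 transcripts, 8 hold the hairpin in an intron, 7 of them protein-coding, and 10 do not span it. In Egfl7-202 it lies in intron 7, a stretch of 600 bases at 26591064 to 26591663. The only transcript with the hairpin in an exon is Egfl7-206, which is annotated as a retained intron. Mir126b (ENSMUSG00000105799.1) lies opposite on the minus strand, 26591363 to 26591420, within the span of Mir126a, and has no row of its own among the genes analysed here.

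The hairpins and mature miRNAs of both strands are shown because the counts below are split by strand. They are from RefSeq (GRCm38.p6, chromosome 2), written 5′ to 3′. In the hairpins capitals mark the mature miRNAs that the RefSeq table gives, and in the mature miRNAs they mark the seed.
Mir126a hairpin: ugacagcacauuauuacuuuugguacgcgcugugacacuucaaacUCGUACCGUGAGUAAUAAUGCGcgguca
mmu-miR-126a-3p: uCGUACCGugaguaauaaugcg
Mir126b hairpin: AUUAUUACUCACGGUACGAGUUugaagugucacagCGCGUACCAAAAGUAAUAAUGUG
mmu-miR-126b-5p: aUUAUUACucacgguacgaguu
mmu-miR-126b-3p: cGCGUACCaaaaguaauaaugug

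mmu-miR-126a-3p occupies bases 46 to 67 of the Mir126a hairpin, and 19 bases of it pair perfectly with mmu-miR-126b-5p. Reads of both are therefore reverse complements over those bases and are told apart by strand. The mature miRNA on the other arm, mmu-miR-126a-5p, is named only. The tables count reads per gene, so the arms of 1 hairpin were not separated. The minimum free energy computed by RNAfold was -31.2 kcal/mol for the 73 bases of Mir126a and -19.3 kcal/mol for the 58 bases of Mir126b.

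**Figure D1:**
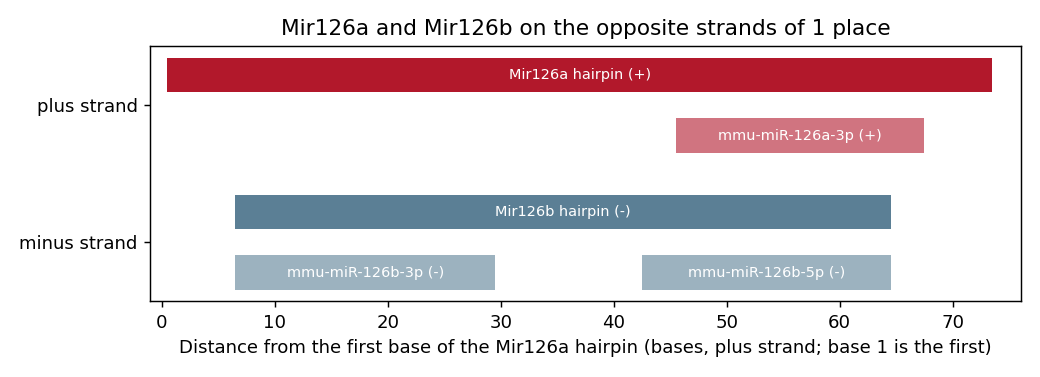
Positions of the Mir126a and Mir126b hairpins and of their mature miRNAs in the RefSeq table, in bases from the first base of the Mir126a hairpin (x axis), by strand (rows; dark bars are hairpins, light bars mature miRNAs). The Mir126b hairpin lies within that of Mir126a, and mmu-miR-126a-3p and mmu-miR-126b-5p overlap by 19 bases.

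The mature sequence had no close relative. Among the 1738 mature miRNAs in the RefSeq table, 0 others had the seed of mmu-miR-126a-3p, and 0 had a seed that differed from it by 1 base. The longest run of the Mir126a hairpin found in a miRNA gene at another place was 12 bases, in Mir6405. A shared run of 20 bases, which held for 929 of the listed genes, marks genes whose reads can align to several places and go uncounted. Mir126a was not among them.

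The seed of mmu-miR-126a-3p holds 2 CG dinucleotides, a pair of bases that is scarce in mammalian genomes. That held for 1.09% of mature miRNAs in the table, while 87.2% had none in the seed. Of the other genes among the 15 most abundant in these libraries, 12 had mature miRNAs in the table, 23 in all, of which 0 had 2 CG in the seed and 4 had 1 or more.

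The exact complement of this seed, CGGTACG, was searched on the sense strand of the longest annotated 3′ UTR of each protein-coding gene, for 20832 genes with at least 30 bases. It was found in 33 genes, or 0.158%. Of the 1398 distinct seeds searched in the same way, 0 had fewer matching genes, the next had 41, and the median seed matched 10.4% of genes. The complement of bases 2 to 7 followed by A, GGTACGA, which can overlap CGGTACG, was found in 0.739% of the genes, and either motif in 0.835%. Spred1, a known target, held 1 match to GGTACGA, at base 511 of its 3′ UTR, shown with the match in capitals.
Spred1 3′ UTR (RNA of chromosome 2, GENCODE M21 transcript): tttaactaaatgtaaGGTACGAac
The longest annotated 3′ UTRs of Pik3r2 and Vcam1, a leukocyte adhesion molecule also known as a target, held neither motif. These are matches of letters in the annotation, and no messenger RNA was measured here.

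Mir126a was the most abundant miRNA gene in each library by uniquely aligned sense counts. It had 237269 sense counts in replicate 1 and 240949 in replicate 2, out of 3447858 and 3534816 sense counts on all miRNA genes. Per 1000000 of those counts (CPM), this was 68816 CPM in replicate 1 and 68165 CPM in replicate 2, or 68490 ± 461 CPM (SD, n = 2). This was a share of 6.88% in replicate 1 (95% Clopper-Pearson interval 6.85 to 6.91) and 6.82% in replicate 2 (6.79 to 6.84).

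The share of Mir126a was large beside that of a typical detected gene. Its level was 216 times the median of the 301 genes that reached 10 CPM in both libraries. Of the 754 genes with any sense count, the 670 lowest together held no more counts than Mir126a did. Of all 11057424 and 11013976 reads of the libraries, mapped or not, Mir126a took 2.17% ± 0.0296 (SD, n = 2). Intervals cover counting error only, since the reads carry no molecular identifiers, and how well each miRNA was captured into the libraries was not measured.

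Reads that aligned to several places were set aside by the authors' counting and came to 3180324 in replicate 1 and 3427344 in replicate 2. Per Mir126a count there were 13.4 such reads in replicate 1 and 14.2 in replicate 2. First place therefore holds among uniquely aligned reads, and miRNAs made from several identical genes may rank too low.

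Mir122, the miRNA of hepatocytes, was next in replicate 1 and Mir17, of a cluster that promotes cell growth, was next in replicate 2. Mir126a exceeded Mir122 by 7904 CPM in replicate 1 and by 21037 CPM in replicate 2, a mean of 14470 ± 9286 CPM (SD, n = 2). Its lead over Mir17 was 20990 CPM in replicate 1 and 14228 CPM in replicate 2, and over Mir335, carried by the imprinted gene Mest, 15732 and 20424 CPM. Mir126a stood above each of these in both libraries, whereas the order of Mir122, Mir17 and Mir335 changed between the libraries. The mean lead over Mir122 was larger than its own SD, but with 2 libraries an exact permutation test cannot give a two-sided p below 0.5, so the order was not tested over samples.

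Mir26b and Mir322 followed Mir335 in the mean order. Mir126a had 1.72 ± 0.0980 times the counts of Mir26b and 2.22 ± 0.0641 times those of Mir322 (SD, n = 2). Each read was taken as 1 mature miRNA, which was not tested, so counts were not divided by length in these ratios. Divided by the annotated gene length, the counts still gave Mir126a rank 1. Of the marker ratios below, that division moved those to Mir486, Mir10a, Mir223, Mir214 and Mir199b by over 1.5 times, to 117, 11.0, 16.7, 22.8 and 361.

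**Figure D2:**
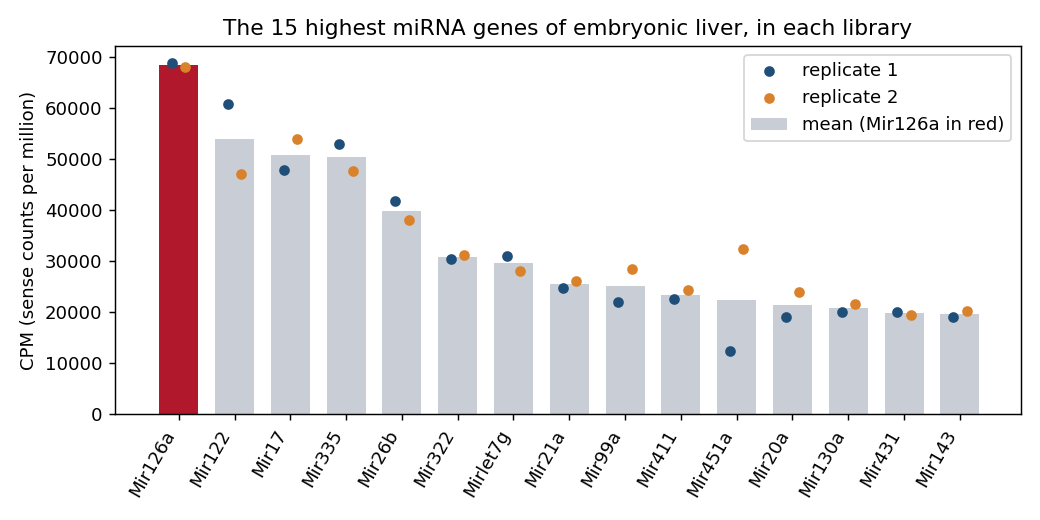
CPM (y axis, per 1000000 sense counts) of the 15 miRNA genes with the highest mean (x axis). Genes without a sense row, such as Mir142, are not drawn. Bars are means of the 2 libraries and points are the libraries; Mir126a, in red, stands at 68816 and 68165 CPM, above every other gene in both.

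The level of Mir126a was close to equal in the libraries, although the direction of its small difference depended on the scaling. In CPM its SD was 0.673% of its mean, the lowest among the 15 most abundant genes, where the others ran between 1.94% for Mir431 and 63.2% for the erythroid Mir451a. Library sizes scaled by TMM, edgeR's trimmed mean, gave a log2 ratio of replicate 1 over replicate 2 of -0.041 (95% interval -0.049 to -0.033). With that scaling, and with DESeq2 size factors, Mir431 had a smaller absolute log2 ratio and Mir126a the next smallest of the 15. With all aligned reads as library sizes Mir322 had the smallest, and Mir126a was the third.

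An exact binomial test (two-sided, library sizes from TMM), adjusted by Benjamini-Hochberg over 464 genes with at least 10 sense counts, called Mir126a lower in replicate 1 (adjusted p = 7.17e-22), a fold of 0.972. The test compares 2 libraries, not conditions, and allows for counting error only. It called 185 genes, or 39.9%, with 18.3% higher and 21.6% lower in replicate 1, so a call was common. With total sense counts as library sizes the log2 ratio was 0.014, and with all aligned reads 0.044, both the other way. In edgeR's negative binomial exact test with an assumed coefficient of variation of 0.1, Mir126a did not pass (adjusted p = 0.995). Over these and the other alternatives its adjusted p ran between 4.97e-27 and 0.995.

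The size of the difference was small among the tested genes. The absolute log2 ratio of Mir126a was smaller than the median of 0.26 over all 464 genes, and 39 genes had a smaller one. Among the 105 genes with a mean of at least 1000 CPM, 13 had a smaller one and the median was 0.15. Counting error shrinks with level, so a small difference is easier to reach for an abundant gene.

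The genes whose log2 ratio between the libraries was nearest to that of Mir126a, among the 105, were Mir381, Mir300 and Mir30a, with -0.046, -0.047 and -0.048. Their levels were lower, at 5243, 2031 and 11903 mean CPM. This likeness rests on a single ratio from 2 libraries.

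**Figure D3:**
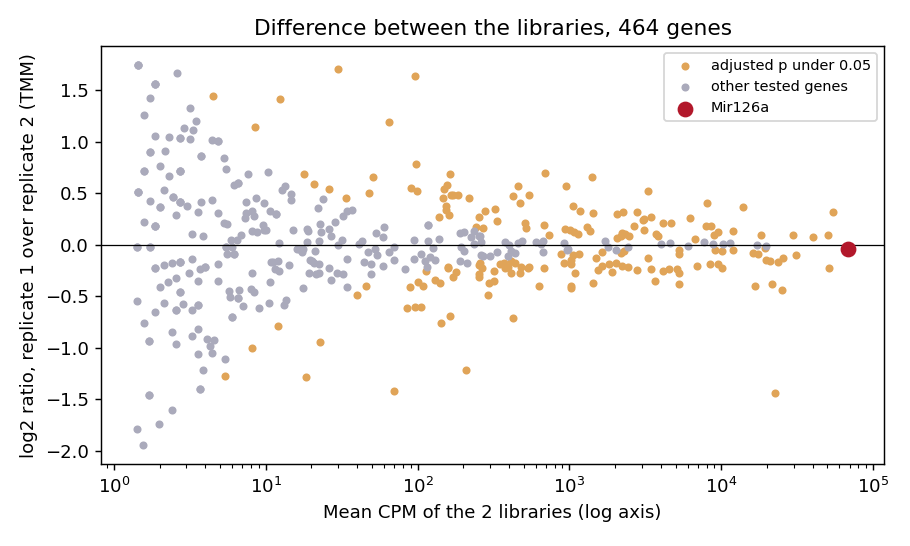
Log2 ratio of replicate 1 over replicate 2 on TMM-scaled library sizes (y axis) against the mean CPM (x axis, log scale) for the 464 tested genes; orange points passed the exact binomial test at 0.05. Mir126a, the red point at the right end, lies at -0.041, close to the line of no difference.

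Set against miRNAs known from other liver cell types, Mir126a was the higher in both libraries for every marker gene listed. Ratios were taken within a library, so the scaling cancels, and are given as mean ± SD over n = 2. Whether a miRNA came only from the cells its list is named for was not tested, and in whole tissue fewer cells of a type and less RNA per cell cannot be told apart. Messenger RNA of Egfl7 or of other endothelial genes was not measured, so the endothelial origin of Mir126a was not tested here either.

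Among hepatocyte miRNAs, Mir122 came nearest to Mir126a, with 60913 CPM in replicate 1 and 47128 CPM in replicate 2. Mir126a had 1.13 times its counts in replicate 1 (95% interval of counting 1.12 to 1.14) and 1.45 times in replicate 2 (1.44 to 1.46). The ratio changed between the libraries by more than counting error, along with Mir122, which was higher in replicate 1. Mir192, known from liver and gut epithelium, lay 38.0 ± 0.465 times below Mir126a, and its cluster partner Mir194-2 lay 74.5 ± 2.06 times below. Mir194-1 had a mean of 5.72 CPM, and its counts and those of Mir194-2 are uncertain because the 2 genes have a run of 20 bases in common. The 4 hepatocyte genes together held 5.67% ± 0.981 of the sense counts, against 6.85% ± 0.0461 for Mir126a alone.

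Among erythroid miRNAs, Mir451a changed most between the libraries. Mir126a had 5.54 times the counts of Mir451a, which acts in red cell maturation, in replicate 1 and 2.10 times in replicate 2. Mir451a itself stood at 12422 CPM in replicate 1 and 32496 CPM in replicate 2. For Mir144, of the same cluster, the ratio was 20.9 in replicate 1 and 16.9 in replicate 2. Mir486 went the other way, with 57.2 in replicate 1 and 76.4 in replicate 2. Mir126a over the summed erythroid list was 4.07 in replicate 1 and 1.82 in replicate 2.

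Among leukocyte and macrophage miRNAs, the myeloid Mir223 had 6929 CPM in replicate 1 and 5584 CPM in replicate 2. Mir126a had 11.1 ± 1.61 times its counts, 292 ± 6.46 times those of Mir155 and 448 ± 157 times those of Mir146a. Mir146a shares a run of 20 bases with another gene, so its counts are uncertain. Mir150, of mature lymphocytes, had a mean of 18.6 ± 1.95 CPM. Without Mir142, the list summed to 0.667% ± 0.102 of sense counts (SD, n = 2). Mir142, found in all blood cells but red cells, has no sense row among the genes analysed here. The reads opposite Mir142b, which cover its place, came to 150867 in replicate 1 and 144755 in replicate 2, while Mir142b itself had 0 sense counts in both. With those reads taken as Mir142, Mir126a was 1.57 times as high in replicate 1 and 1.66 times in replicate 2.

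Of the mesenchymal miRNAs, Mir143 came nearest to Mir126a. Mir143, known from smooth muscle and stellate cells, had 19037 CPM in replicate 1 and 20332 CPM in replicate 2, and Mir126a was 3.48 ± 0.185 times as high. The ratio to Mir214 was 15.1 ± 1.43. Mir145a, which shares a transcript with Mir143, and Mir199b lay further below, with ratios of 274 ± 35.9 and 240 ± 52.2. Mir199a-1 and Mir199a-2 had means of 4.89 and 46.0 CPM and, as Mir199b, have a run of 20 bases in common with another copy. Mir126a was 2.76 ± 0.176 times the sum of the 7 genes, most of which is Mir143. Mir145b had 0 counts, which allows up to 0.870 CPM in replicate 1 and 0.849 CPM in replicate 2.

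Epithelial miRNAs of the miR-200 family, known from bile duct and other epithelia, were far below. Mir429, the highest of them, had 1750 CPM in replicate 1 and 1066 CPM in replicate 2, and Mir126a had 39.3 times its counts in replicate 1 and 64.0 times in replicate 2. The ratios to Mir200c, Mir200b, Mir200a and Mir141 ran between 107 ± 38.0 and 794 ± 229. Each of the 5 ratios was higher in replicate 2, and the ratio to their sum was 20.2 in replicate 1 and 32.2 in replicate 2.

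Since miR-126 is also known from blood stem cells, miRNAs of stem and progenitor cells were set beside it. Mir99a stood at 25265 ± 4689 CPM, Mir130a at 20894 ± 1049 CPM and Mir99b at 11456 ± 436 CPM (SD, n = 2). Mir126a was 2.76 ± 0.530, 3.28 ± 0.187 and 5.98 ± 0.187 times as high. Mir100, Mir125a, Mir196b, Mir125b-1 and Mir125b-2 lay lower, with ratios between 13.1 ± 2.18 for Mir100 and 324 ± 20.9 for Mir125b-2. Mir125b-1 and Mir125b-2 hold a common run of 20 bases, so their counts are uncertain. Summed, the 8 genes came close to Mir126a alone, which was 1.09 times the sum in replicate 1 and 0.955 times in replicate 2.

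Markers of muscle and neurons, which a clean liver dissection should lack, were low beside Mir126a. The highest 3 of the list were Mir206, Mir208b and Mir208a, with means of 209, 70.1 and 19.1 CPM. Mir499, also known from muscle but not on the list, had a mean of 266 CPM. Mir206 and Mir208b differed between the libraries, with log2 ratios of replicate 1 over replicate 2 of -1.22 and -1.42 (TMM). For Mir208a it was 0.13. The 11 genes analysed summed to 655 sense counts in replicate 1 and 1443 in replicate 2, and the ratio of Mir126a to the sum was 362 in replicate 1 and 167 in replicate 2. The Mir1a, Mir133a and Mir124a genes analysed, and Mir9-2, had 0 sense counts, but they share 20 bases with other copies, so a count of 0 does not bound them.

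**Figure D4:**
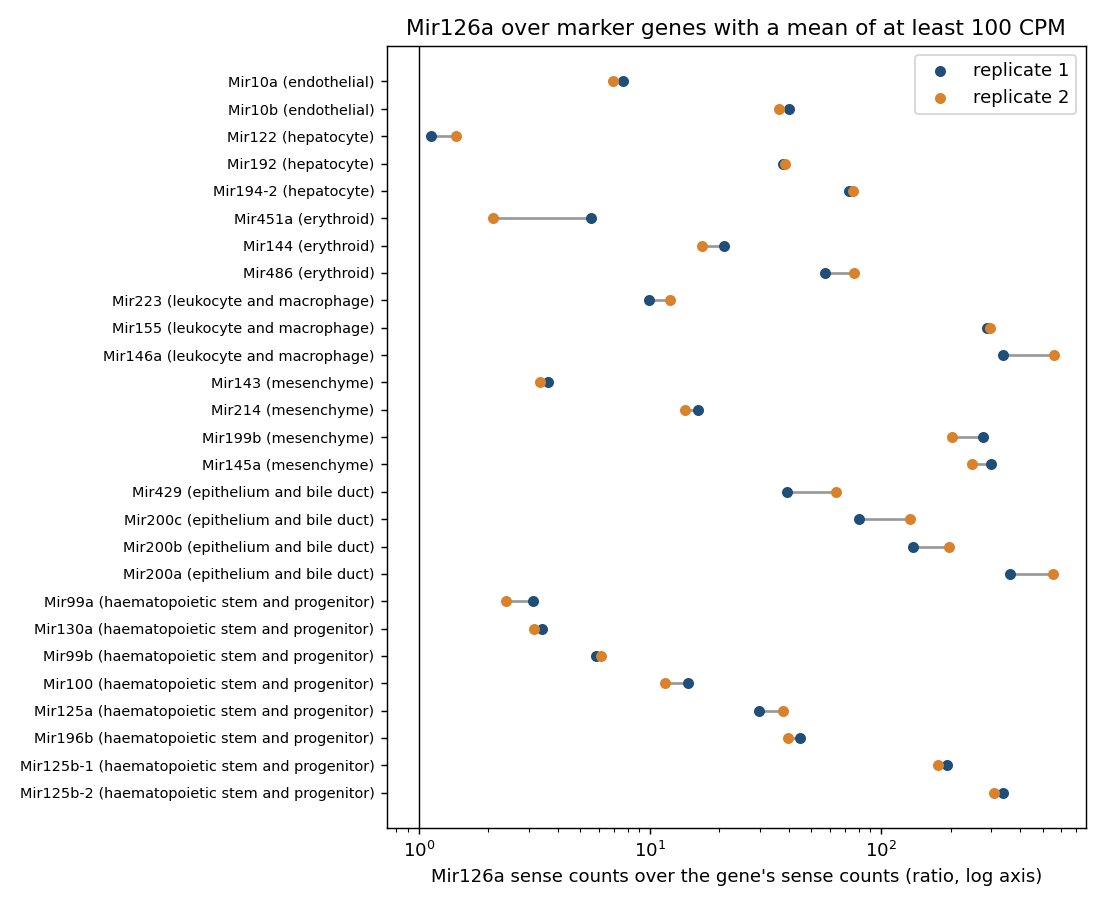
Mir126a sense counts divided by those of each marker gene with a mean of at least 100 CPM (x axis, log scale), with 1 point per library and a line between them. The vertical line marks equal counts, and Mir126a was the higher for every gene drawn, from 1.13 times for Mir122 in replicate 1 upwards. Mir142, which has no sense row, is not drawn. By the reads opposite Mir142b its ratios were 1.57 in replicate 1 and 1.66 in replicate 2. Muscle and neural markers are not drawn either.

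The other miRNAs of the endothelial list were well below Mir126a. Mir10a and Mir10b, which lie in Hox gene clusters and are known from zebrafish to act in vessel growth, had 9444 ± 584 and 1810 ± 114 CPM (SD, n = 2). Mir126a was 7.27 ± 0.498 times as high as Mir10a and 37.9 ± 2.64 times as high as Mir10b. It made up 86.5% of the summed list in replicate 1 and 85.3% in replicate 2.

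In a wider list of 34 miRNAs described to act in endothelial cells or vessel growth, 32 were analysed and 28 reached 10 CPM in both libraries. The highest were Mir17, Mir322, Mir21a, Mir20a and Mir130a, and Mir17 reached 50882 CPM. Many act in other cells too. Together the 32 held 20.8% of sense counts in replicate 1 and 21.6% in replicate 2. Mir126a alone came to 0.331 and 0.316 times their sum. Several of the 32, such as Mir23a and Mir92-1, share a run of 20 bases with another gene, so the sum may be too low.

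Between the libraries, the exact binomial test called 5 of the 31 tested members of the wider list higher and 14 lower in replicate 1, beside 18.3% and 21.6% of all tested genes. The higher ones were Mir23a, Mir23b, Mir296, Mir92-1 and Mir146a. All of these but Mir296 share a run of 20 bases with another gene, so only their uniquely aligned reads were compared. The list's median log2 ratio was -0.11, beside -0.019 over all tested genes. With total sense counts as library sizes 6 were called higher and 11 lower, beside 21.6% and 16.4% of all tested genes. Since counting error shrinks with level, the binomial test calls abundant genes more readily. The shares were not matched for level, so whether the list differs from other genes was not tested. In edgeR's negative binomial exact test at a coefficient of variation of 0.1 the calls came to 0 members of the list, beside 2.59% of all tested genes. Mir10a and Mir10b, with log2 ratios of -0.18 each, were among the 14.

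On the strand opposite Mir126a the tables held few reads, but more than opposite any other of the 10 most abundant genes. There were 39 antisense counts in replicate 1 and 49 in replicate 2, or 0.0164% (95% Clopper-Pearson interval 0.0117 to 0.0225) and 0.0203% (0.0150 to 0.0269) of the counts on both strands. Per antisense count there were 6084 sense counts in replicate 1 and 4917 in replicate 2. Scaled like the sense counts, the antisense reads stood at 11.3 CPM in replicate 1 and 13.9 CPM in replicate 2, above the 0.870 and 0.849 CPM that a count of 0 allows. The libraries' intervals overlap.

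Of the 10 genes with the most sense counts, Mir335 had the most antisense counts after Mir126a, with 1 in replicate 1 and 3 in replicate 2. Mir122 and Mir21a had 0 in replicate 1 and 1 in replicate 2, and Mir17, Mir26b, Mir322, Mirlet7g, Mir99a and Mir411 had 0 in both libraries. Of these genes, Mir126a alone had more than 3 antisense counts in a library.

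Across the 203 genes with at least 1000 counts on both strands, 167 had 0 antisense counts. More antisense than sense counts were found at 9 genes, and all 9 have an annotated miRNA gene opposite. The 5 genes with the most antisense counts, Mir142b, Gm24321, Gm25301, Gm25252 and Gm24083, lie opposite Mir142, Mir409, Mir378a, Mir376a and Mir191. Of 19 genes with an annotated miRNA gene opposite, 17 had at least 1 antisense count, against 19 of the 184 without one. The 9 genes with mostly antisense counts are among the 17 and reached 1000 counts only through those reads. Their antisense counts were therefore fixed by the limit, and the contrast was in part built in.

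Mir126a belonged to 7 genes that had mostly sense counts and still at least 10 antisense counts in each library. Of these, 4 have an annotated miRNA gene opposite, namely Mir3074-1 (opposite Mir24-1), Mir486 (Mir3107), Mir337 (Mir3544) and Mir126a (Mir126b). The other 3, Mir708, Mir203 and Mir130a, have none annotated there. The antisense share of Mir126a was the lowest of the 7, from 12.6% for Mir3074-1 down to 0.0486% for Mir130a and 0.0184% for Mir126a over both libraries. The 7 were picked by a number of antisense counts, so a gene with many sense counts can enter at a low share. Of all 194 genes with mostly sense counts, 16 had a higher antisense share than Mir126a, and only 27 had any antisense count. In number of antisense counts Mir126a was the fourth of the 194.

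If all antisense reads are given to Mir126b, its mean of 12.6 ± 1.80 CPM (SD, n = 2) would place it at rank 307 of 2005 genes, while Mir126a stays at rank 1. Of 32 such opposite genes without a row of their own, 24 had counts and 13 were higher than Mir126b. The tables do not say where in the span a read lay, so whether these reads are mature miR-126b was not tested.

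**Figure D5:**
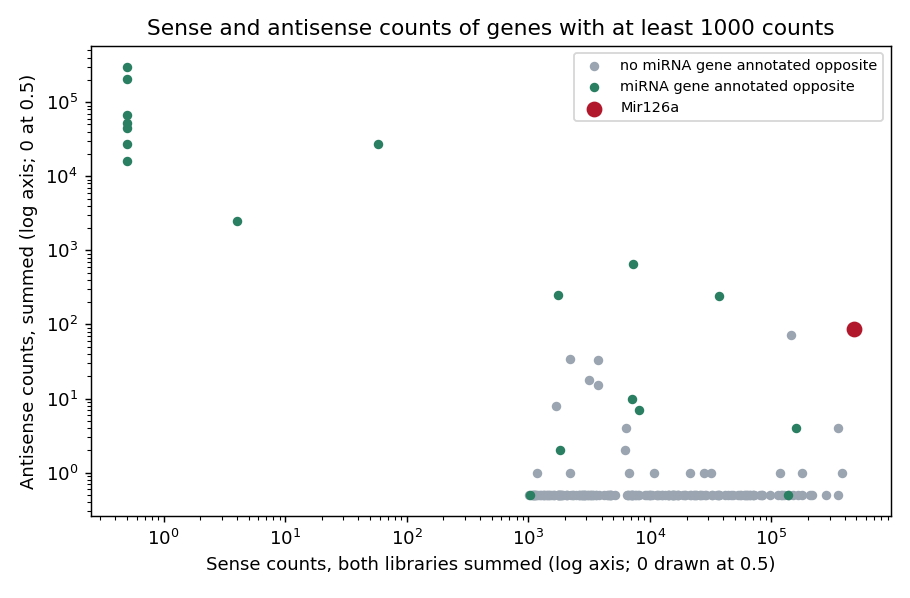
Antisense counts (y axis) against sense counts (x axis), each summed over the 2 libraries, for the 203 genes with at least 1000 counts, on log axes with 0 drawn at 0.5. Green genes have an annotated miRNA gene opposite; Mir126a, in red, has the most sense counts, with 39 antisense counts in replicate 1 and 49 in replicate 2, while most genes lie on the bottom line at 0.

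No other miRNA gene near Mir126a had more than a few counts. The nearest listed gene, Mir6996, lies 121 kb before it and had 0 sense counts in replicate 1 and 4 in replicate 2. Mir7664 and Gm24328 before it and Gm24049, Mir7578 and Gm22824 after it, at distances of 810 kb to 2017 kb, had at most 1 count in a library. Of the 224 listed genes on chromosome 2, Mir126a held 62.2% of the sense counts in replicate 1 and 61.8% in replicate 2, followed by Mir130a at 20894 mean CPM.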

How the data were processed

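Raw counts of reads were deposited by the authors, 1 table a library, for both strands, the sense and the antisense strand of 1973 miRNA genes and 4 lines of reads in no gene. The file lists deposited with the tables name mm10 as the assembly and GENCODE M4 as the annotation. The aligner and the counter were not given in the sources used here. Of the 11057424 and 11013976 reads (replicates 1 and 2), 29.4% and 25.8% were unmapped, 28.8% and 31.1% aligned to several places and 10.6% and 11.0% fell in no gene. These stayed out of library sizes.

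Names and coordinates came from GENCODE M21, the same assembly, which holds 1894 of the identifiers. Of 79 list members 73 were analysed, 2 matched by RefSeq synonyms. Log2 ratios add 0.5 counts; the two-sided binomial p is the smaller tail doubled, called at 0.05. edgeR's quasi-likelihood test needs replicates per side and was not used. Tools were edgeR 4.0.16, DESeq2 1.42.0 (size factors), SciPy 1.17.1 and RNAfold 2.7.2. The procedure was run on simulated counts with counting error only, so that check does not cover variation beyond counting. A 3′ UTR is the longest per protein-coding gene. A count of 0 was read as at most 3 counts.

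The gene and lists were chosen with earlier results of these data known. Named were Mir126a and Mir126b, the 5 nearest genes in rank and members of short lists. From the wider list the 5 highest and those called higher in replicate 1 were named. Also named were 3 genes of like ratio, 3 neighbours per side and the 5 genes with most antisense counts. Others were named after their values were seen: genes of the 15 most abundant, the further genes with antisense counts, Mir499 and the targets.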

Additional observations from a re-analysis of the deposited data

How the results depend on the processing

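Mir126a kept rank 1 under the 6 alternatives run for its rank. Both-strand counts, counts per base of gene length and antisense counts given to the gene on that strand could have changed it. None of the 6 restored the reads that aligned to several places. Leaving out either library, or the genes with a shared run of 20 bases, could not lower the rank. Mir126a led in each library and holds no such run. Its share of 6.85% became 6.19% with both-strand counts and 6.19% with antisense counts given to the opposite gene, 7.66% among genes without a shared run, 7.61% per base of gene length, 2.995% of aligned reads and 2.17% of all reads, each of which changes the denominator by construction, and ran from 6.82% to 6.88% with a library left out. The log2 ratio of replicate 1 over replicate 2 (-0.041 with TMM) reversed to 0.014 with total sense counts and 0.044 with all aligned reads, stayed negative at -0.022 with DESeq2 size factors and -0.046 with both-strand counts, and at -0.041 did not pass edgeR's negative binomial exact test at a coefficient of variation of 0.1. That test called 12 genes against 185, since it allows for variation beyond counting; with the other alternatives the count ran from 173 to 192.

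Per base of gene length the ratio of Mir126a to Mir10a was 11.0 in place of 7.27, to Mir223 16.7 in place of 11.1 and to Mir143 3.01 in place of 3.48, which follows from the annotated gene lengths. Of 36 marker genes with counts in both libraries, the ratios to 15 moved by more than 1 SD per base of length, by factors within the range of 0.863 to 1.75 over all 36, with the highest for Mir486 (117 in place of 66.8). With both-strand counts the ratios to 0 of the 36 moved so far. Given the reads opposite Mir142b as Mir142, a setting chosen after seeing the data, the ratio to the leukocyte and macrophage list was 1.40 in place of 10.4. With a library left out, the ratio ran from 1.13 to 1.45 for Mir122, 2.10 to 5.54 for Mir451a, 9.93 to 12.2 for Mir223 and 39.3 to 64.0 for Mir429, and the antisense share from 0.0164% to 0.0203%. With 39 and 49 antisense counts, depth limits what can be said of Mir126b.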
